A study of Mus musculus with 12 samples.

Results

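The clock output genes are the genes through which the circadian clock of a cell reaches the rest of its transcripts. The group described here holds 9 such genes: the PAR bZIP transcription factor genes Dbp, Tef and Hlf, their counterpart Nfil3, and Ciart, Usp2, Wee1, Bhlhe40 and Bhlhe41. Members were found by their symbols in the platform annotation, which gives each of them 1 probe set (a set of probes that reads 1 gene), among 16475 probe sets other than array controls. The members were chosen by function and with their levels on these 12 arrays in view, so those levels are a description and their direction is not independent evidence.

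Livers of 12 mice were measured on Affymetrix arrays, 1 array per mouse, 3 mice in each of 4 groups. The groups were c-Met knockout livers with HGF, c-Met knockout livers without HGF, control livers with HGF and control livers without HGF. All mice carried loxP-flanked c-Met alleles, c-Met being the receptor of hepatocyte growth factor (HGF). The knockout mice, written c-MetDhepa, also carried a Cre transgene, either Alfp-Cre (albumin/AFP promoter and enhancer, active in the embryo) or Alb-Cre (albumin promoter, active from 2 weeks after birth). Which transgene each mouse had is not stated, nor are strain, age or hour of killing. Both promoters act in cells of the hepatocyte lineage, so Kupffer, endothelial and other cells outside it keep the receptor. Groups with HGF had received 2 µg of recombinant mouse HGF 2 h earlier. The groups without HGF are labelled unstimulated, and whether they had been given NaCl is not said for each mouse. The arrays address which liver transcripts answer HGF and which of those answers need c-Met in hepatocytes.

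In the clock, CLOCK and BMAL1 (encoded by Arntl) bind E-boxes, short DNA elements with the core CACGTG, and switch on target genes. Among these targets are the PER and CRY proteins, which shut the activators off again, and the PAR bZIP factors. DBP, TEF and HLF in turn activate genes that carry D-boxes, and NFIL3, also called E4BP4, represses at the same elements in the opposite phase. In liver, genes of drug, bile acid and lipid metabolism are known to follow this output.

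E-boxes are shown first, since CLOCK and BMAL1 bind them. Whether the activators reach each member through an E-box was not tested. Promoter windows from 250 bases before to 50 bases after the gene start were taken from RefSeq (GRCm38.p6) for 7 of the 9 genes, 8 windows in all since Tef has 2. The letters CACGTG, which read the same on both strands, occurred in 4 of the 8 windows, against 7.15% of all 32851 promoter windows. These windows belong to 3 genes, Ciart, Tef and Bhlhe41. Ciart, which encodes a repressor of BMAL1 also known as CHRONO, held 3 E-boxes at positions -116, -58 and -44 from its start. Of all windows, 0.0883% hold 3 or more. Tef held 1 in each window, at -127 and at -138. The Ciart window lies on the minus strand at chr3:95882179-95882478, and those of Tef lie on the plus strand at chr15:81802423-81802722 and chr15:81811164-81811463. E-boxes are in capitals:
Ciart: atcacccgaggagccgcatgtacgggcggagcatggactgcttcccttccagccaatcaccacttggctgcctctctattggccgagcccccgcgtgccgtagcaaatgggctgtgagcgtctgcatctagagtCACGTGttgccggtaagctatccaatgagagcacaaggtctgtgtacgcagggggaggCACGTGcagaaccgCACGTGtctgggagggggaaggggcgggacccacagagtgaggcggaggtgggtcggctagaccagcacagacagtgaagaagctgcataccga
Tef, first start: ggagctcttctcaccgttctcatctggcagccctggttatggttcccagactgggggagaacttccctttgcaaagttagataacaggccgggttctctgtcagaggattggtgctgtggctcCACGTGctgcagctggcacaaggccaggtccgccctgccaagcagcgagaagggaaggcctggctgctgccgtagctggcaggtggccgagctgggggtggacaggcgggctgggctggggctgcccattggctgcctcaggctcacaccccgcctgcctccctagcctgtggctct
Tef, second start: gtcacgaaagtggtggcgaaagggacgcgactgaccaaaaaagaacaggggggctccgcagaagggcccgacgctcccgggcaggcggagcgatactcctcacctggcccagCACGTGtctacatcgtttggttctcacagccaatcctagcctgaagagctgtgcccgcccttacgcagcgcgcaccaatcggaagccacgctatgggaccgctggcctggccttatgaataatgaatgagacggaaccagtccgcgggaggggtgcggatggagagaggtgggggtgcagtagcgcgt
The D-box letters TTATGTAA and TTACGTAA, searched on both strands, occurred in 0 of the 8 windows, against 1.06% of all windows. Elements outside these windows were not searched. The array data of Ciart and of Tef follow below with those of the other members.

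Levels are given as log2(intensity + 1), where 1 unit is a doubling. Each level is that of 1 probe set and is not set against the level of another gene. Of the 9 genes, 8 passed the filter for testing, a log2 level of at least 4 on at least 3 arrays. Ciart, Usp2 and Wee1 reached it on exactly 3 arrays, so for them passing the filter already meant that some arrays stood far above the others. Bhlhe41, a relative of Bhlhe40, stayed near background at 2.04 to 2.45 on all 12 arrays and was not tested.

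2 arrays stood against their labels before any test. On knockout replicate 2 with HGF and knockout replicate 2 without HGF, 7 of the 8 tested genes below had levels like those of the other knockout group. Genes outside the clock did so too, among them the HGF-responsive chemokine gene Cxcl1, at 7.26 on replicate 2 with HGF and 11.70 on replicate 2 without. Whether the labels of these 2 arrays were exchanged was not tested, and an exchange would turn round what their values say of HGF in knockouts. The results for the knockout groups are therefore also given without both of these arrays. They were singled out by their values on these arrays, so larger changes without them follow in part from that choice. Values and counts of calls without them are given as a description, with no p for the knockouts.

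Dbp, whose product is a D-box activator, varied more within the knockout groups than within the control groups. In each knockout group the replicate 2 array lay apart from the other 2. It was at 5.09, 11.05 and 2.81 in knockout livers with HGF (replicates 1 to 3) and at 10.72, 2.92 and 10.72 in knockout livers without HGF. It was at 5.21, 2.61 and 3.55 in control livers with HGF and at 6.22, 5.91 and 7.498 in control livers without HGF. Knockout replicate 2 with HGF and knockout replicates 1 and 3 without HGF thus stood above all 6 control livers, and the other 3 knockout livers lay within the range of the HGF-treated controls. The lowest of the 3 high arrays was 3.22 above the next array.

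Tef, a thyrotroph embryonic factor of the same family, had the same arrays at its top. It was at 4.94, 7.38 and 3.74 in knockout livers with HGF and at 7.47, 3.95 and 7.62 in knockout livers without HGF. In control livers it was at 4.59, 4.08 and 4.36 with HGF and at 4.86, 4.80 and 5.58 without HGF. The 2 knockout groups overlapped, and in controls all 3 livers with HGF lay below all 3 without.

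Hlf, the hepatic leukemia factor gene and the third PAR bZIP member, moved over a narrower range, 3.31 to 5.35. It was at 4.16, 5.13 and 3.31 in knockout livers with HGF and at 5.35, 3.62 and 5.33 in knockout livers without HGF. It was at 4.46, 4.06 and 3.93 in control livers with HGF and at 4.47, 4.48 and 4.55 in control livers without HGF. Its 3 highest arrays were those of Dbp and Tef, and 3 livers stood below the filter level of 4.

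Nfil3, the repressor at D-boxes, ran the other way. It was at 8.47, 5.00 and 7.80 in knockout livers with HGF and at 5.28, 8.04 and 5.33 in knockout livers without HGF. It was at 7.92, 7.83 and 7.82 in control livers with HGF and at 7.33, 6.94 and 6.94 in control livers without HGF. The 3 arrays highest in Dbp were the 3 lowest in Nfil3, 1.61 below the next array.

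**Figure D1:**
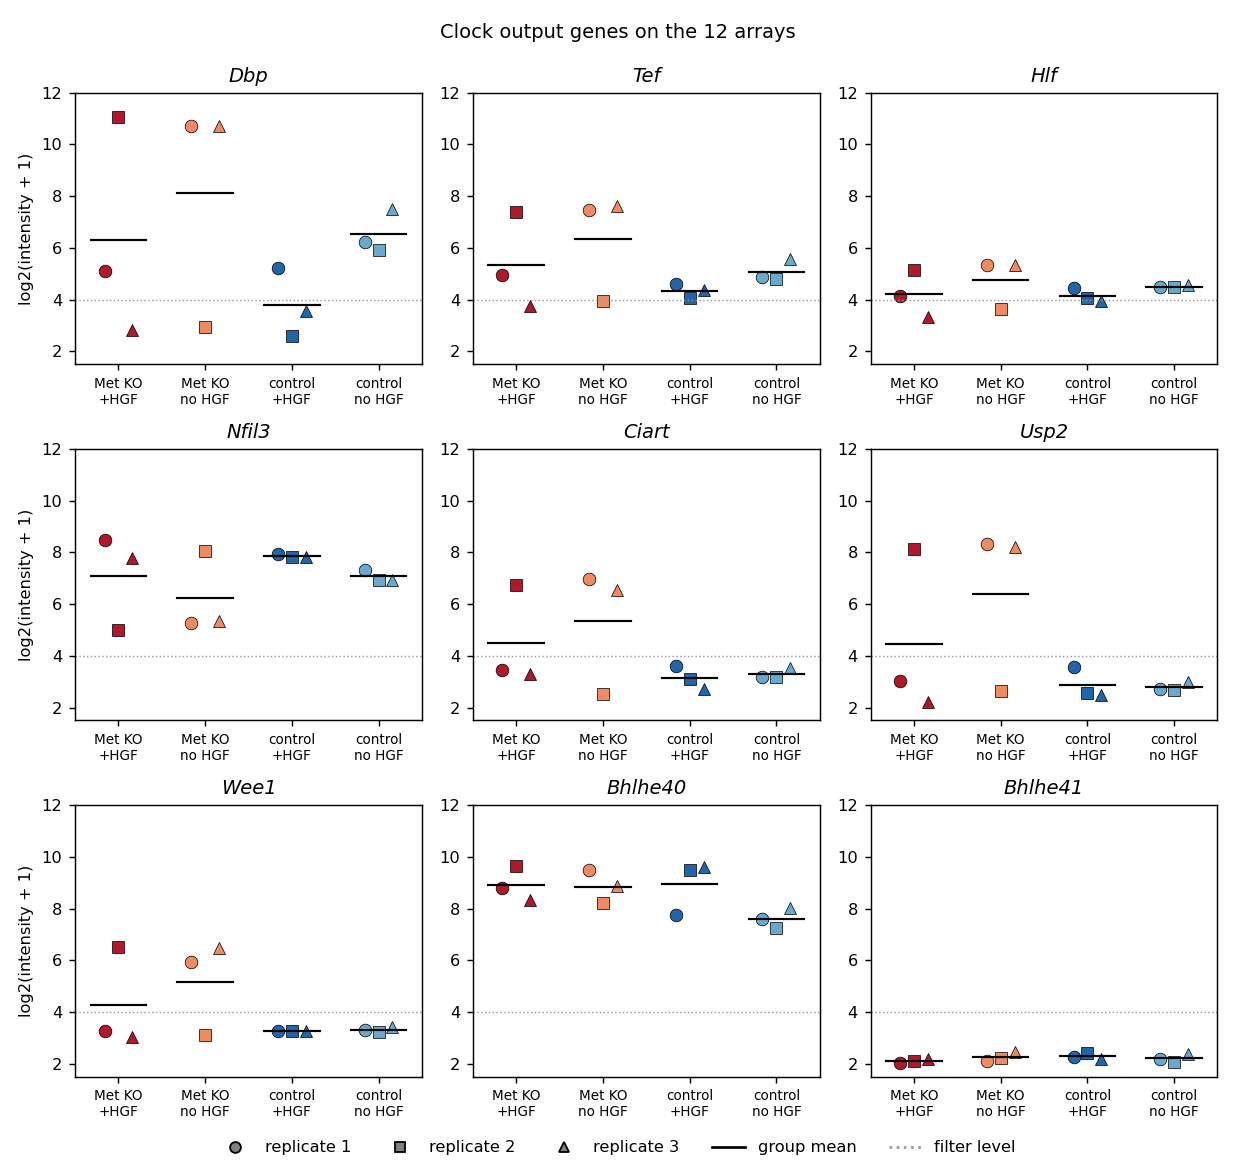
Levels of the 9 clock output genes, as log2(intensity + 1), on each of the 12 arrays. Groups run along the horizontal axis, symbols mark replicates 1 to 3, bars mark group means and the dotted line marks the filter level of 4. In Dbp, Tef, Hlf, Ciart, Usp2 and Wee1, replicate 2 of the knockouts with HGF and replicates 1 and 3 of the knockouts without HGF stand above all other arrays, and in Nfil3 they stand below them.

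Ciart, whose promoter window is printed above, was low in every control liver. It was at 3.46, 6.75 and 3.29 in knockout livers with HGF and at 6.98, 2.51 and 6.55 in knockout livers without HGF. Its levels were 3.59, 3.08 and 2.70 in control livers with HGF and 3.18, 3.18 and 3.53 in control livers without HGF. The 3 high knockout livers stood 2.96 above the next array, and the other 9 arrays lay below the filter level.

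Usp2, which encodes a deubiquitinating enzyme, showed the widest gap of the group. It was at 3.04, 8.15 and 2.20 in knockout livers with HGF and at 8.31, 2.64 and 8.21 in knockout livers without HGF. It was at 3.56, 2.57 and 2.496 in control livers with HGF and at 2.73, 2.66 and 3.001 in control livers without HGF. Between the third and the fourth highest array lay 4.59.

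Wee1, which encodes a kinase that holds CDK1 inactive before mitosis, had nearly one level outside the 3 high arrays. It was at 3.25, 6.53 and 3.04 in knockout livers with HGF and at 5.93, 3.13 and 6.46 in knockout livers without HGF. It was at 3.25, 3.26 and 3.28 in control livers with HGF and at 3.30, 3.21 and 3.43 in control livers without HGF. All 6 control livers thus lay within 3.21 to 3.43.

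Bhlhe40, which encodes the E-box repressor DEC1, did not follow this order. It was at 8.81, 9.65 and 8.33 in knockout livers with HGF and at 9.47, 8.20 and 8.87 in knockout livers without HGF. It was at 7.76, 9.49 and 9.62 in control livers with HGF and at 7.59, 7.23 and 8.01 in control livers without HGF. Every knockout liver without HGF lay above every control liver without HGF, while control replicate 1 with HGF lay among the untreated controls.

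The 3 arrays highest in Dbp were also the 3 highest in Tef, Hlf, Ciart, Usp2 and Wee1 and the 3 lowest in Nfil3, with Bhlhe40 as the exception among the 8 genes that passed the filter. Over all 6683 tested probe sets, these arrays were the 3 highest in 9.53% and the 3 lowest in 5.81%. Since the order was read from Dbp, and since Ciart, Usp2 and Wee1 passed the filter through these arrays alone, the counts are a description without a test.

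The spread between arrays of one knockout group was wide with all 3 replicates and smaller without the 2 replicate 2 arrays. These were left out because their values lay opposite to their groups, so a smaller SD without them follows from that choice and is a description. Within the knockout groups Dbp had an SD of 4.38, larger than that of any other tested probe set, against 1.11 within the control groups (log2 units, n = 3 per group). Usp2 had 3.23 in knockouts and 0.44 in controls, Ciart 2.22 and 0.35, Tef 1.97 and 0.35, Nfil3 1.71 and 0.16, and Hlf 0.95 and 0.20. Wee1 had an SD of 1.88 within the knockout groups and 0.08 within the control groups. Bhlhe40 had 0.65 in knockouts and 0.78 in controls and was the 1 tested member with the larger spread in controls. Wee1, Ciart and Usp2 passed the filter only through the 3 high knockout arrays and lay below it in every control. Their larger spread in knockouts thus follows in part from the filter. It also follows from how these arrays fell, 1 in the knockout group with HGF and 2 in the group without. Over all tested probe sets the median SD was 0.24 in knockouts and 0.17 in controls, with the knockout value larger in 71.2% of them. Without the 2 replicate 2 arrays, the SD within the knockout groups was 1.14 for Dbp, 0.60 for Tef, 0.42 for Usp2, 0.42 for Hlf, 0.34 for Nfil3, 0.29 for Wee1 and 0.23 for Ciart (n = 2 per group). Dbp and Usp2 then had nearly the SD of the controls, while those of Tef, Hlf, Nfil3 and Wee1 were above and those of Ciart and Bhlhe40 below it. The knockout SD was then larger in 5 of the 8 members (62.5%), near the 57.6% of all tested probe sets. Over all of these the median SD was 0.19 in knockouts and 0.17 in controls.

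**Figure D2:**
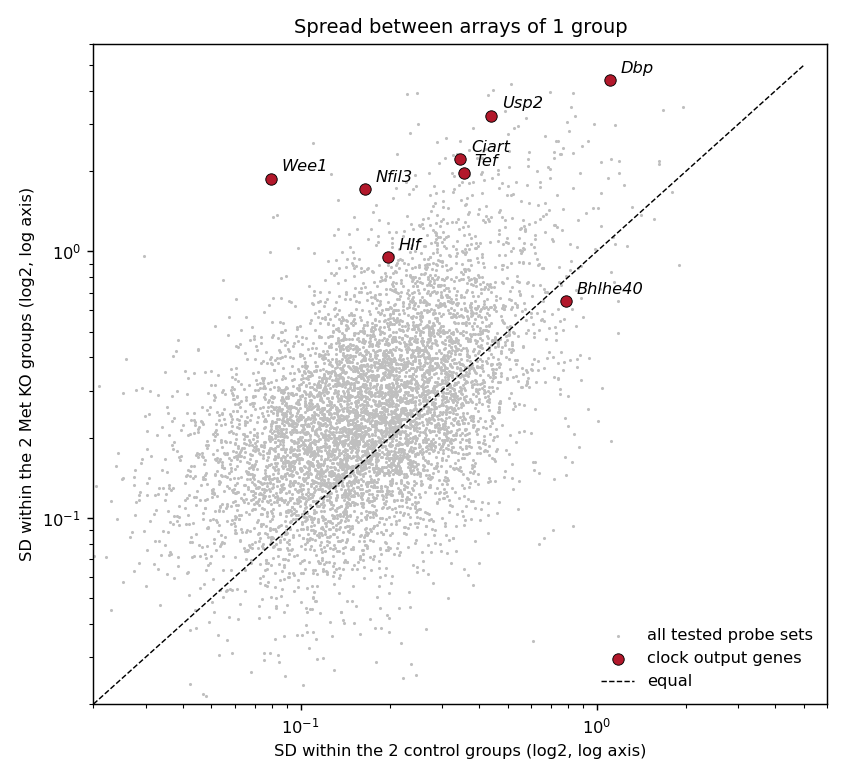
SD between arrays of the same group, pooled over the 2 knockout groups (vertical axis) and over the 2 control groups (horizontal axis), in log2 units on log axes. Grey points are all 6683 tested probe sets, red points the 8 clock output genes that passed the filter, and the dashed line marks equal spread. Dbp lies highest at 4.38, Wee1 far to the left at 1.88 against 0.08, and Bhlhe40 alone among the members below the line. All 12 arrays are included. Without both knockout replicate 2 arrays, which were left out for their values, Dbp had 1.14.

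HGF in knockout livers gave no called change in the group. limma, a linear model fitted over all tested probe sets with 1 mean per group and 1 spread for all 4 groups, called a gene at a Benjamini-Hochberg adjusted p under 0.05. It called 0 of the 8 members, where 0% of all tested probe sets were called, and 0 members had an unadjusted p under 0.05, against 1.9% of all. In this contrast 0 members had groups that did not overlap, against 3.8% of all tested probe sets (2.56% higher and 1.24% lower with HGF). The estimated changes were -1.80 for Dbp (95% confidence interval -6.92 to 3.31), -1.92 for Usp2 (-5.62 to 1.77) and 0.87 for Nfil3 (-1.09 to 2.83), all with an adjusted p of 0.9995. Intervals of this width leave large changes in either direction possible. The median change over the members was -0.87, against -0.01 over all tested genes with a symbol. Usp2, Ciart and Wee1 passed the filter only through knockout replicate 2 with HGF and replicates 1 and 3 without HGF. The median is therefore a description.

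Without the 2 knockout replicate 2 arrays, limma called 7 of the 8 members for HGF in knockout livers, against 4.16% of all tested probe sets. The changes were -6.77 for Dbp, -3.20 for Tef, -1.61 for Hlf and 2.82 for Nfil3. Those of Usp2, Ciart and Wee1 were -5.64, -3.39 and -3.05, for genes that had entered the test only through their high arrays. Bhlhe40, at -0.60, was not called. This fit sets 2 livers against 2, left after the arrays with opposite levels had been removed, so neither the count nor its distance from the share of all probe sets supports an effect of HGF.

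In control livers, HGF went with lower levels of the PAR bZIP factors and a higher level of Nfil3, none of it called by limma over all 4 groups. Dbp averaged 3.79 ± 1.32 with HGF and 6.54 ± 0.84 without (SD, n = 3 each), a change of -2.75 (SE 2.30). Tef changed by -0.74 (SE 1.02), Hlf by -0.35 (SE 0.50) and Nfil3 by 0.78 (SE 0.88). For these 4 genes the livers with and without HGF did not overlap, 3 of them lower and 1 higher with HGF. Over all tested probe sets, 37.7% had groups that did not overlap, 23.7% lower and 14.1% higher with HGF, so this was common among genes at large.

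limma called 0 of the 8 members for HGF in control livers, against 0.404% of all tested probe sets (27, or 0 to 317 with a single array left out), and 1 member, Bhlhe40, had an unadjusted p under 0.05, against 19.6% of all. Bhlhe40 averaged 8.96 ± 1.04 with HGF and 7.61 ± 0.39 without, a change of 1.35 (SE 0.53, limma adjusted p = 0.199). The spread used for these tests held the knockout arrays too. With the 2 control groups alone, Nfil3 passed at the same change of 0.78 (SE 0.13, limma adjusted p = 0.0128), in a fit that called 12% of all tested probe sets, and Dbp, at -2.75 (SE 0.70, limma adjusted p = 0.0524), did not. Without the 2 knockout replicate 2 arrays, Nfil3 was the 1 member of 8 called, against 8.16% of all tested probe sets. Its change stayed at 0.78 and the SE fell to 0.18. The arrays were left out for their values, so the smaller SE follows in part from that choice. This call is therefore a description. Ciart, Usp2 and Wee1 changed by -0.17, 0.08 and -0.05 in controls and stayed below the filter level on all 6 arrays.

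For the knockout against the control without HGF, limma called 0 of the 8 members, against 0.0599% of all tested probe sets. Bhlhe40, the 1 member with an unadjusted p under 0.05 where 10.8% of all had one, was higher in knockouts by 1.24 (SE 0.53, limma adjusted p = 0.425). It was also the 1 member whose groups did not overlap, against 18.7% of all tested probe sets, 6.61% higher and 12.1% lower in knockouts. Usp2 averaged 6.39 ± 3.24 in knockout livers and 2.80 ± 0.18 in control livers (SD, n = 3 each), a difference of 3.59 (SE 1.66, limma adjusted p = 0.483). Ciart differed by 2.05 (SE 1.15), Wee1 by 1.86 (SE 0.96) and Dbp by 1.58 (SE 2.30). The median difference was 1.42 over the members and -0.03 over all tested genes with a symbol. Usp2, Ciart and Wee1 passed the filter only through high knockout arrays, replicates 1 and 3 without HGF among them. A median above that of all genes follows in part from this, so it is a description.

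Without the 2 knockout replicate 2 arrays, limma called 6 of the 8 members in this contrast, against 2.69% of all tested probe sets. The differences were 4.17 for Dbp, 2.46 for Tef and -1.77 for Nfil3. Those of Usp2, Ciart and Wee1 were 5.46, 3.47 and 2.88, taken against controls below the filter level, and their size depends on the background there. Hlf (0.84) and Bhlhe40 (1.56) were not called. The 2 arrays were left out for their values, and Usp2, Ciart and Wee1 entered the test only through high knockout arrays. Neither the count nor its distance from the share of all probe sets therefore supports an effect of the knockout. Array numbers in the labels run from 1 to 6 for controls and from 7 to 12 for knockouts, so genotype and array order cannot be told apart. The 3 knockout livers with high Dbp have the array numbers 7, 10 and 11.

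With HGF, no difference between knockout and control livers passed the test in any member. limma called 0 of 8, against 0.015% of all tested probe sets, with 0 members at an unadjusted p under 0.05 against 9.58% of all, and 0 members without overlap against 14.9% (8.81% higher and 6.08% lower in knockouts). Dbp differed by 2.53 (SE 2.30), Usp2 by 1.59 (SE 1.66), Tef by 1.01 (SE 1.02) and Nfil3 by -0.77 (SE 0.88). Leaving out both knockout replicate 2 arrays, the difference was 0.16 for Dbp, -0.26 for Usp2, -0.0018 for Tef and 0.28 for Nfil3, and limma called 0 of 8 members against 0.0299% of all.

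The interaction, the HGF change in knockouts minus that in controls, was called for 0 of the 8 members by limma, with 0% of all tested probe sets called, and 0 members against 10.8% of all had an unadjusted p under 0.05. It was -2.001 for Usp2 (95% confidence interval -7.23 to 3.23) and 0.95 for Dbp (-6.29 to 8.19). Without the 2 knockout replicate 2 arrays, limma called 4 members, Usp2 (-5.72), Ciart (-3.22), Wee1 (-2.997) and Nfil3 (2.04), against 0.359% of all tested probe sets, with the same limits of choice.

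**Figure D3:**
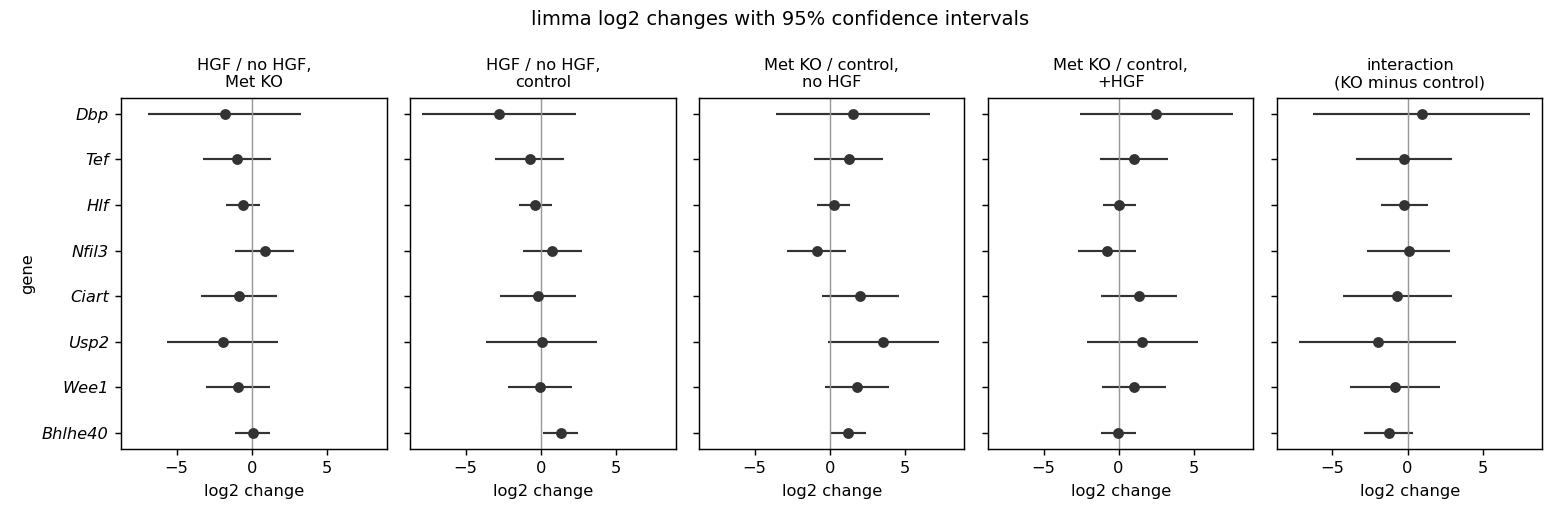
limma log2 changes (horizontal axis) of the 8 tested clock output genes, with 95% confidence intervals, for the HGF contrasts in knockouts and in controls, knockout against control without and with HGF, and the interaction. Every interval holds 0 except those of Bhlhe40 for HGF in controls and for the knockout without HGF, and the intervals of Dbp are the widest.

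Of the core clock genes, 4 of 8 tested had their extreme levels on the 3 arrays highest in Dbp, and Cry1, Nr1d1, Rora and Csnk1d did not. Over all tested probe sets, these arrays were the 3 highest in 9.53% and the 3 lowest in 5.81%. Of 15 listed core loop genes, 13 had a probe set, 8 passed the filter and limma called 0 in every contrast. Arntl, which encodes the activator BMAL1, was at 5.66, 2.82 and 5.41 in knockout livers with HGF and at 2.77, 5.76 and 2.59 in knockout livers without HGF, and within 4.84 to 5.62 in the 6 controls. It was low where Dbp was high, as was Clock, its partner, which ranged from 5.35 to 7.36 over all arrays. Cry2, a repressor, was at 5.71, 6.99 and 5.27 in knockout livers with HGF, at 6.81, 4.64 and 6.80 in knockout livers without HGF, and lower in controls with HGF (4.50 to 4.95) than in controls without (5.78 to 6.03).

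Nr1d1, which encodes the nuclear receptor REV-ERB alpha, a repressor of Arntl and of Nfil3, followed this order only in part. It was at 6.88, 7.36 and 5.42 in knockout livers with HGF and at 7.27, 4.94 and 6.20 in knockout livers without HGF, against 4.26 to 5.48 in controls with HGF and 6.44 to 6.66 in controls without. The knockout groups overlapped and the control groups did not. Cry2 and Nr1d1 were the 2 of 8 tested core clock genes lower with HGF without overlap in controls. Over all tested probe sets 23.7% were, so this was common among genes at large. Cry2 and Nr1d2 had the 3 arrays highest in Dbp at the top, and Arntl and Clock had them at the bottom.

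Genes reported to depend on the PAR bZIP factors or Nfil3 were listed as well. Of 12, 9 had a probe set, 6 passed the filter and limma called 0 in every contrast. Cyp7a1, the rate-limiting enzyme of bile acid synthesis, was at 7.66, 9.79 and 6.10 in knockout livers with HGF and at 9.69, 5.87 and 9.88 in knockout livers without HGF, against 6.59 to 7.82 in controls with HGF and 8.22 to 8.89 in controls without. Its 3 highest arrays were the 3 highest in Dbp, as they were for Ppara, which encodes a fatty acid sensor and ranged from 8.85 to 10.99, and for Nr1i3, which encodes the drug sensor CAR and ranged from 7.89 to 9.31. Over all tested probe sets, these arrays were the 3 highest in 9.53%. Alas1, the first enzyme of heme synthesis, was highest in knockout replicate 1 without HGF at 12.09 and did not share the order. Cyp2c50 and Cyp3a11 did not share it either. In controls, 4 of the 6 were lower with HGF without overlap: Cyp7a1, Ppara, Cyp2c50 and Cyp3a11, where 23.7% of all tested probe sets were.

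**Figure D4:**
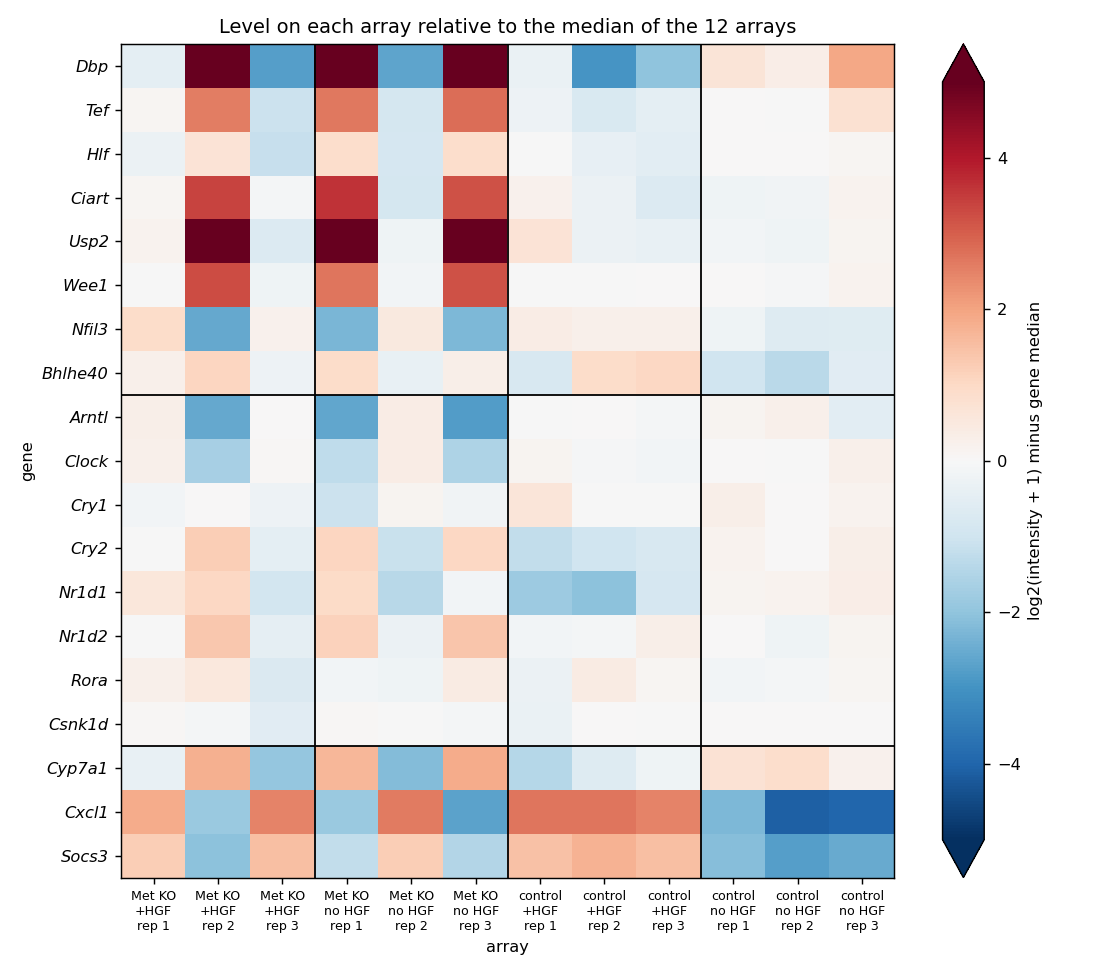
Level of 19 genes (rows) on each of the 12 arrays (columns) as log2(intensity + 1) minus the gene's median over the arrays, red above and blue below; the colour scale ends at 5 either way, which Dbp and Usp2 pass. Rows are 8 clock output genes, 8 core clock genes, and Cyp7a1, Cxcl1 and Socs3. Columns 2, 4 and 6 are red for Dbp, Tef, Ciart, Usp2, Wee1 and Cyp7a1 and blue for Nfil3, Arntl and Clock.

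Of the inflammatory genes, Cxcl1 and Socs3 were low in the knockout livers high in Dbp and high in the other knockout livers. The neutrophil chemokine gene Cxcl1 was at 10.94, 7.26 and 11.58 in knockout livers with HGF and at 7.23, 11.70 and 6.42 in knockout livers without HGF, against 11.56 to 11.78 in controls with HGF and 5.00 to 6.84 in controls without. The 3 knockout livers high in Dbp were the 3 knockout livers lowest in Cxcl1. Socs3, a feedback inhibitor of cytokine signalling, was at 8.66, 5.36 and 8.92 in knockout livers with HGF and at 6.18, 8.64 and 5.96 in knockout livers without HGF, against 8.86 to 9.16 in controls with HGF and 4.65 to 5.27 in controls without. In controls, Usp2, Ciart and Wee1 stayed below the filter level both in the livers with low Cxcl1 and in those with high Cxcl1. The controls with high Cxcl1 were those with HGF. Dbp, Tef and Hlf were lower there and Nfil3 higher, without overlap, while Bhlhe40 overlapped. Over all tested probe sets, 23.7% were lower and 14.1% higher with HGF in controls without overlap. Of 13 listed NF-kappaB and immediate early genes 12 were tested, and 0 of them had the 3 arrays highest in Dbp as their 3 highest or 3 lowest. Over all tested probe sets, these shares were 9.53% and 5.81%. For Cxcl1 and Socs3, untreated controls lay below some or all of these arrays, so the count does not describe the order among knockouts. Cxcl1 and Socs3 set knockout replicate 1 with HGF apart from the livers high in Dbp, but not every listed gene did. Cxcl2 was at 2.66 and Tnfaip3 at 3.74 on that array. On knockout replicate 1 without HGF, which was high in Dbp, they were nearly as high, at 2.42 and 3.41. The part of the inflammatory response in the levels of clock output genes was not tested.

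The tissue was liver by its markers, and 8 of 10 hepatocyte markers had a probe set and passed the filter, with a summed intensity of 90963 to 98393 over all arrays. Of 10 neutrophil markers, 8 had a probe set and 2 passed, S100a8 and S100a9; the summed intensity was 40.5 to 1257 in knockouts with HGF, 55.7 to 1272 in knockouts without, 785 to 2854 in controls with HGF and 49.98 to 107 in controls without. The 3 knockout livers high in Dbp had 40.5, 66.6 and 55.7, the lowest of the knockouts, and whether neutrophils had a part in the clock levels was not tested. Kupffer cell markers (11 of 11 tested) summed to 2980 to 4266 in knockouts with HGF, 2661 to 4069 in knockouts without, 2831 to 3780 in controls with HGF and 3495 to 5308 in controls without. Sinusoidal endothelium markers (8 of 8 tested) summed to 1409 to 1802 in knockouts with HGF, 1347 to 1874 in knockouts without, 1186 to 1277 in controls with HGF and 1598 to 1628 in controls without. Stellate cell and matrix markers (5 of 7 tested) summed to 1783 to 2035 in knockouts with HGF and 2120 to 2571 in knockouts without. In controls they summed to 1634 to 1822 with HGF and 1552 to 1838 without. Without HGF, 3 of the 5 were higher in knockouts than in controls without overlap, where 6.61% of all tested probe sets were. Cholangiocyte (5 of 6 with a probe set) and lymphocyte markers (6 of 8) had 0 tested genes. In bulk liver, fewer cells of a type and less RNA per cell cannot be told apart. The probe set of Met itself was at 6.61, 7.40 and 6.29 in knockout livers with HGF, 7.06, 6.68 and 7.18 in knockout livers without, 6.59, 6.78 and 7.02 in control livers with HGF and 6.62, 6.84 and 6.77 in control livers without; where its probes lie relative to the deleted part is not known here, so it does not check the labels.

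The genes whose order over the 12 arrays was most like that of Dbp were named by Spearman's rho, as a description over 12 arrays that share the groups. Outside the group these were Kcnk5 (rho 0.97), a potassium channel gene, then Ubac1, Nr2f2 and Akap8, and Rnf4 (rho 0.96). The most opposite were Itgb2 (rho -0.98), an integrin chain of leukocytes, then Gadd45b, Marcks, Crp and Ier5. Kcnk5 was at 3.30, 6.16 and 2.94 in knockout livers with HGF and at 5.91, 2.98 and 5.35 in knockout livers without HGF, against 2.86 to 3.14 in controls with HGF and 4.52 to 4.87 in controls without.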

How the data were processed

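Total RNA of 12 mouse livers was labelled with biotin and hybridised to Affymetrix arrays, per the labels' protocols. The authors deposited 1 linear intensity per probe set and array, computed with GCRMA per the submitters' processing notes (version: not given in the sources used here). That method corrects background and brings arrays to a common distribution, so a shift shared by most genes would not show, and differences near background are compressed. The number of arrays limits the precision. Groups and replicate numbers came from the sample titles.

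Intensities were analysed as log2(intensity + 1), which understates changes of dim genes. Of 16539 probe sets, 64 array controls were left out; of the other 16475, 15780 have 1 gene symbol and 695 none. Probe sets at a log2 level of 4 or more on at least 3 arrays were tested (6683). limma 3.58.1 in R 4.3.3 fitted 4 group means with 8 residual degrees of freedom, two-sided, with Benjamini-Hochberg adjustment over all tested probe sets; the fit was tested on simulated data. Same-numbered arrays correlated at -0.83 to 0.29 after group means were removed, and the control pairs at 0.05 to 0.18. The -0.83 was that of the 2 knockout replicate 2 arrays, which also shift their group means. These values thus cannot decide whether the numbers pair the animals, and the main fit used no pairing. The alternatives were a pseudocount of 16, no filter, a filter at 6, median centring, a replicate block, the 2 groups alone, array weights and each array left out. Leaving out both knockout replicate 2 arrays was added after seeing the data. The rule for named genes outside the group took the 4 core clock genes and the 4 reported targets with the widest range, Cxcl1, Socs3, Met, and the 5 most like and most unlike Dbp. Other genes named beside a small count were named after their values were seen. The members and lists were chosen with earlier results of these data known.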

Additional observations from a re-analysis of the deposited data

How the results depend on the processing

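limma called 0 of the 8 clock output genes in all 5 contrasts with each single array left out (lowest and highest count 0), and also with a pseudocount of 16, no filter, a filter at 6, median centring and the replicate block. No pairing by animal is given, and the replicate block moved the calls over all probe sets for HGF in controls to 0, against 27. Members were called in other settings. Leaving out both knockout replicate 2 arrays, chosen after seeing the data, gave 7 for HGF in knockouts, 1 for HGF in controls, 6 for knockout against control without HGF and 4 for the interaction. The 2 control groups alone gave 1 (Nfil3), where 12% of all probe sets were called. Array weights gave 1 for HGF in controls (Bhlhe40, 1.75), where 19.1% of all were called, and 1 for knockout against control without HGF (Usp2, 4.83), where 2.24% of all were called.

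Directions turned as follows, and the cause was not tested. With array weights, the changes were -0.32 for Bhlhe40 with HGF in knockouts, -0.17 for Usp2 with HGF in controls, 0.13 for Nfil3 in knockout against control with HGF, and -1.02 for the Dbp interaction. Without both knockout replicate 2 arrays, they were -0.60 for Bhlhe40 with HGF in knockouts and -4.02 for the Dbp interaction, and in knockout against control with HGF -0.0018 for Tef, -0.41 for Hlf, 0.28 for Nfil3, -0.26 for Usp2 and -0.12 for Wee1. With single arrays left out, HGF in knockouts ranged from -0.28 to 0.39 for Bhlhe40. HGF in controls ranged from -0.40 to 0.040 for Ciart, -0.27 to 0.27 for Usp2 and -0.11 to 0.0056 for Wee1. Knockout against control without HGF ranged from -0.021 to 0.84 for Hlf. Knockout against control with HGF ranged from -0.63 to 0.30 for Bhlhe40, -0.41 to 0.50 for Hlf, -1.46 to 0.28 for Nfil3, -0.0018 to 1.82 for Tef, -0.26 to 2.72 for Usp2 and -0.12 to 1.63 for Wee1. The interaction ranged from -2.09 to 0.14 for Ciart, -1.65 to 2.70 for Dbp, -0.79 to 0.23 for Hlf, -0.60 to 1.13 for Nfil3 and -1.45 to 0.55 for Tef.

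Calls over all probe sets for HGF in controls (27) were 41 with a pseudocount of 16, 13 with no filter, 801 with the 2 groups alone, 1279 with array weights, 545 without both knockout replicate 2 arrays, 0 without control replicate 2 or 3 with HGF or any untreated control, 3 without control replicate 1 with HGF, and 58, 121 and 317 without knockout replicate 2 or 3 with HGF or replicate 2 without. For knockout against control without HGF (4) they were 1 with the filter at 6 or the block, 150 with array weights, 180 without both arrays and 1 to 9 with a single array left out. With HGF (1) they were 275 with array weights and 2 without both arrays. For the interaction (0) they were 104 and 24, and for HGF in knockouts (0) 278 without both arrays. Array signal over background limits Ciart, Usp2 and Wee1 in controls and Bhlhe41 on every array.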

Other observations

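Other genes with daily rhythms in liver were listed as well. Of 15, 14 had a probe set and 13 passed the filter, and limma called 0 of them in every contrast. The 3 arrays highest in Dbp were the 3 highest for 2 of them, Rgs16, a regulator of G protein signalling, and Gys2, the liver glycogen synthase. They were the 3 lowest for 4, Insig2, Tfrc, Hnf4a and Tars. Over all tested probe sets, these shares were 9.53% and 5.81%. The 6 genes were named after their values were seen.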
